A study of Mus musculus with 5 samples.

Results

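Heat shock chaperones were followed in MutuDC cells, an immortalised line of mouse dendritic cells with cDC1 features, during treatment with the compound that the labels spell Fanchinoline. The 10 genes were chosen by name. They are the heat shock factor Hsf1, the cytosolic chaperones Hspa8, Hspa4, Hsph1, Hsp90aa1, Hsp90ab1, Dnaja1 and Dnajb1, and the mitochondrial chaperonin genes Hspd1 and Hspe1. All 10 were found among 53700 gene entries, each with 1 entry, and all 10 passed the minimum of 10 CPM (counts scaled to a common library size). RNA was sequenced after 2, 6, 12 and 24 h with the compound and in a 0 h control, called vehicle control in the labels and untreated cells in the design text of the series. Each time point has 1 count column, although that text speaks of triplicates. No replicate spread could therefore be measured, p-values between time points are not given, and hours in culture and exposure to the compound cannot be told apart. In RNA from a whole culture, fewer cells of a type and less RNA per cell cannot be told apart either. Genotype was the same line throughout, and no dose was found in the labels.

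Heat shock chaperones hold other proteins in a foldable state or fold them with the use of ATP. HSP70 proteins bind exposed stretches of a client, J-domain proteins (the Dnaj genes) deliver clients to them, and nucleotide exchange factors of the HSP110 kind release the client. HSP90 acts later on near-native clients, and HSP60 with its lid HSP10 encloses proteins inside mitochondria. Hsf1 is the transcription factor that switches these genes on under proteotoxic stress, by binding repeats of the element TTCNNGAA and its inverse.

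The upstream sequences are shown because the element bound by Hsf1 is one feature that members may share beyond their names. RefSeq's promoter table (GRCm38.p6) held entries for 6 of the 10 members, with no entry for Hsf1, Hspa8, Hsp90aa1 and Hsp90ab1. The 250 bases before each gene start listed there were searched on both strands for TTCNNGAANNTTC, and for its parts TTCNNGAA and GAANNTTC, which overlap it. In the sequences capitals mark these matches. The Hspe1 stretch lies at chr1:55087898-55088147 (plus strand), that of Dnaja1 at chr4:40722218-40722467 (plus strand), that of Hsph1 at chr5:149636337-149636586 (minus strand) and that of Dnajb1 at chr8:83607925-83608174 (plus strand).
Hspe1: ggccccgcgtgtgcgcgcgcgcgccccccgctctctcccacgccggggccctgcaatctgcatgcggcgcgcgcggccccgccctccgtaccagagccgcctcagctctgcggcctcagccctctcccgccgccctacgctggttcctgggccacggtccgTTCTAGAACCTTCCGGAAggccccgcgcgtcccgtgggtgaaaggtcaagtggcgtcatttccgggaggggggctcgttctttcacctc
Dnaja1: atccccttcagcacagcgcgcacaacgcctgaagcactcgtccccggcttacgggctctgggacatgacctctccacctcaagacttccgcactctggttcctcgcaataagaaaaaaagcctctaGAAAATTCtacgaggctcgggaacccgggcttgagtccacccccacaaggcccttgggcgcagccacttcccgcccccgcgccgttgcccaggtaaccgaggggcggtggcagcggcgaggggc
Hsph1: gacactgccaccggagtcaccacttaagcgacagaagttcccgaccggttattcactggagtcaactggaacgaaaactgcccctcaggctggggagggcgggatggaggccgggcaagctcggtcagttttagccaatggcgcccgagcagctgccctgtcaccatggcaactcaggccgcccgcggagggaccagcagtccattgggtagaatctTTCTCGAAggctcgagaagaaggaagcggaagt
Dnajb1: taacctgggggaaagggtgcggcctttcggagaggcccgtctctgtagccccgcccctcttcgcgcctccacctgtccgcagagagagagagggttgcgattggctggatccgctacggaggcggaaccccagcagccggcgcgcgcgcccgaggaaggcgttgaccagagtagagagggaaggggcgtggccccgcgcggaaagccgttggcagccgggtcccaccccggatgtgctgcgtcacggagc

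The Hspe1 stretch held TTCNNGAANNTTC 2 times, starting 89 and 84 bases before the gene start and overlapping each other, so that 4 alternating units follow without a break. Hspd1 and Hspe1 are head to head on chromosome 1, and the same bases lie 144 and 139 bases before the Hspd1 start at 55087932, read from the other strand. The table lists another Hspd1 start at 55088243, where the annotated gene begins, and the stretch before it held 0 matches to any of the 3 patterns. This longer motif was present in 0.466% of 32851 promoter stretches of the same length. Hsph1 had TTCNNGAA once, as did 7.17% of all stretches. This match lay 33 bases before its first listed start and 54 bases before its other listed start at 149636315. It lies within the annotated Hsph1 gene, which begins at 149636376 on the minus strand. Dnaja1 had GAANNTTC once, 124 bases before its first listed start, as did 6.69% of all stretches. That match too lies within the annotated gene, as Dnaja1 begins at 40722150. The stretches before its other listed starts, at 40722922 and 40722930, held 0 matches to any of the 3 patterns. Neither letter pattern was in the stretches of Dnajb1 or Hspa4. A match is a description of the letters only.

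Libraries held 33568526 counts in vehicle and 37589066 to 42854511 with Fanchinoline, so counts at 10 CPM were 328 to 427. Long transcripts stood above short ones in every treated library relative to vehicle: the median log2 ratio of the longest of 5 equal length classes of genes minus that of the shortest was 0.62 at 2 h and 0.78 at 24 h, against 0.06 for 6 h over 2 h. Mitochondrially encoded RNA took 1.47% to 1.78% of counts in treated libraries and 2.58% in vehicle. All 10 of 10 cDC1 markers passed 10 CPM, and at 24 h 1 of them was called lower by 1.5-fold (Batf3, 43.4 CPM at 24 h and 71.7 CPM in vehicle), where 8.87% of all compared genes were. With adjustment Batf3 was at -0.22 and not called, and Flt3 was called (-0.70), where 5.39% of all compared genes were called lower. For 24 h over 2 h 3 of 10 were called lower, against 3.80% of all compared genes. They were Zbtb46 (-0.89, and -0.76 adjusted), Flt3 (-0.72, and -0.67 adjusted) and Irf8 (-0.65, and -0.51 adjusted). Of 15 markers of other lineages 7 were at 0 in every library and only Csf1r reached 10 CPM, with 137 CPM at 24 h and 72.3 CPM in vehicle. The part of transcript length, culture time or cell state in the values below was not tested. Log2 ratios adjusted for transcript length and GC content are given for members at 2 h or 24 h and for calls that change with the adjustment.

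**Figure D1:**
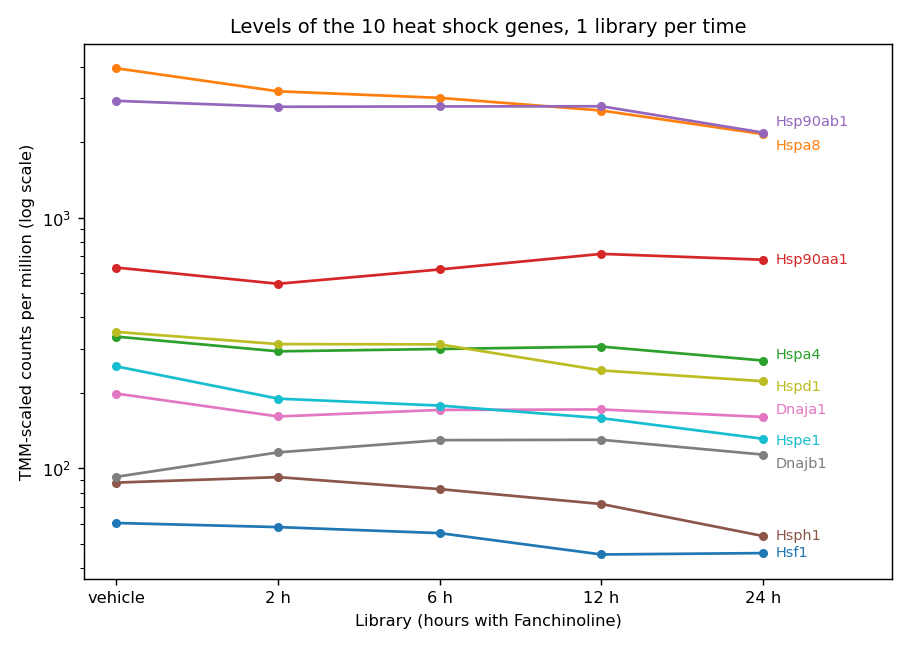
Scaled CPM (log axis) of the 10 genes in vehicle and after 2, 6, 12 and 24 h with Fanchinoline, 1 library and 1 point per time. Hspa8 was at 2153 CPM at 24 h and 3941 CPM in vehicle, and Dnajb1 was above its vehicle level at every time.

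The transcription factor Hsf1 (chr15:76477422-76501913, plus strand) was near its vehicle level at 2 h and below it from 6 h on. It was at 60.5 CPM in vehicle and at 58.2, 55.1, 45.3 and 45.8 CPM at 2, 6, 12 and 24 h. At 2 h the interval of its log2 ratio held 0 (-0.05, 95% exact interval -0.14 to 0.03), and at 24 h it did not (-0.40, -0.49 to -0.31). Adjusted for length and GC content the 24 h ratio was -0.23. These intervals, like all below, cover counting error only, and gene positions are those of GRCm38.

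Hspa8 (chr9:40800984-40810087, plus strand), which encodes HSC70, the constitutive cytosolic HSP70, was lower in every step. Per kilobase of transcript it was the most abundant member at every time. In CPM Hsp90ab1 stood above it at 12 and 24 h (2781 and 2183 CPM), by less than the 213 and 180 CPM of the Hspa8 pseudogene Gm15459 described below. Hspa8 was at 3941 CPM in vehicle and at 3190, 3004, 2674 and 2153 CPM at 2, 6, 12 and 24 h. All 4 treated libraries were below vehicle, in the order of time. Its log2 ratio at 24 h was -0.87 (-0.88 to -0.86), a change of -45.4%, and -0.79 when adjusted. For 24 h over 12 h alone the change was -19.5%.

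Hspa8 has processed pseudogenes close enough that reads may be divided among them. Annotated copies at 95% identity or more over at least 200 bases numbered 6, and 5 of these carried counts, equal to 9.17% of the Hspa8 counts over all libraries. The largest, Gm15459, matched at 99.7% identity over 1941 bases and was at 180 CPM at 24 h and 281 CPM in vehicle, a log2 ratio of -0.65. Its profile also lay below vehicle at every time. The small nucleolar RNA genes Snord14c, Snord14d and Snord14e share exon positions with Hspa8.

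The exchange factors had different courses. Hspa4 (chr11:53259814-53300457, minus strand), an HSP110-type exchange factor, was at 335 CPM in vehicle and at 293, 299, 306 and 269 CPM at 2, 6, 12 and 24 h. Its ratios stayed within -0.32 and -0.13, but all 4 were lower when adjusted (-0.36 at 2 h and -0.55 at 24 h); its transcript is the longest of the members (4618 bases). Hsph1 (chr5:149614287-149636376, minus strand), its close relative HSP105, was at 87.6 CPM in vehicle and at 92.1, 82.5, 72.0 and 53.6 CPM at 2, 6, 12 and 24 h. It was near its vehicle level at 2 h (0.07, 0.0005 to 0.14; -0.02 adjusted) and then lower in each step, to -0.71 (-0.79 to -0.63) at 24 h and -0.84 adjusted. Between treated libraries Hsph1 had the largest difference among members, with -0.78 (-0.86 to -0.70) for 24 h over 2 h.

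The J-domain genes, which hand clients to HSP70, lay on opposite sides of vehicle. Dnajb1 or HSP40 (chr8:83608193-83612653, plus strand) was the only member above vehicle at all 4 times, with 92.4 CPM in vehicle and 116, 129, 130 and 113 CPM at 2, 6, 12 and 24 h. Its log2 ratio was 0.32 (0.26 to 0.39) at 2 h, 0.49 at 6 and at 12 h, and 0.29 (0.23 to 0.36) at 24 h, when it was 22.6% higher. Adjusted values were 0.21 to 0.42. Dnaja1 or HDJ2 (chr4:40722150-40737149, plus strand) was at 199 CPM in vehicle and at 161, 171, 172 and 160 CPM at 2, 6, 12 and 24 h. Its log2 ratio was -0.30 at 2 h and -0.31 at 24 h, and with adjustment -0.16 at 2 h and -0.35 at 24 h. Dnaja1 shares exon positions with Smu1 on the other strand and with Mir207 on its own, and libraries that do not mark strand cannot tell such reads apart; 3 pseudogene copies held counts equal to 4.57% of its own.

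The HSP90 genes also had different courses. Hsp90ab1 (chr17:45567775-45573271, minus strand), the constitutive form, was at 2923 CPM in vehicle and at 2767, 2776, 2781 and 2183 CPM at 2, 6, 12 and 24 h. At 2, 6 and 12 h it differed from vehicle by -5.31%, -5.03% and -4.84%, and at 24 h by -25.3% (log2 ratio -0.42, -0.43 to -0.41, and -0.36 adjusted). Hsp90aa1 (chr12:110690605-110702728, minus strand), the stress-inducible form, was at 632 CPM in vehicle and at 544, 621, 717 and 679 CPM at 2, 6, 12 and 24 h. It was below vehicle at 2 h (-0.21, -0.24 to -0.19, and -0.13 adjusted), and above it at 12 h (0.18, 0.16 to 0.21) and 24 h (0.10, 0.08 to 0.13, and 0.07 adjusted). For 24 h over 2 h it stood at 0.32 (0.29 to 0.34) and at 0.20 adjusted. Pseudogenes of Hsp90aa1, led by Gm12346, held counts equal to 3.67% of its own.

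Both mitochondrial genes were below vehicle at every time. Hspd1 (chr1:55077835-55088243, minus strand), which encodes HSP60, was at 350 CPM in vehicle and at 313, 312, 246 and 222 CPM at 2, 6, 12 and 24 h. It differed from vehicle by -10.6% at 2 h and by -36.4% at 24 h (log2 ratio -0.65, -0.69 to -0.61), with its largest step between treated libraries at 12 h over 6 h (-0.34). Its log2 ratio at 2 h was -0.16, and -0.04 with adjustment. Hspe1 (chr1:55088132-55091307, plus strand), which encodes the lid HSP10, was at 255 CPM in vehicle and at 189, 178, 158 and 131 CPM at 2, 6, 12 and 24 h. As scaled, it was the lowest member at every time relative to vehicle, with -0.43 at 2 h and -0.96 (-1.01 to -0.91) at 24 h. Hspe1 has the shortest transcript of the members (774 bases), and its adjusted ratios were -0.09 at 2 h and -0.55 at 24 h, close to the adjusted -0.55 of Hspd1. Their exons share positions on opposite strands at the common start, where reads of the pair cannot be told apart.

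**Figure D2:**
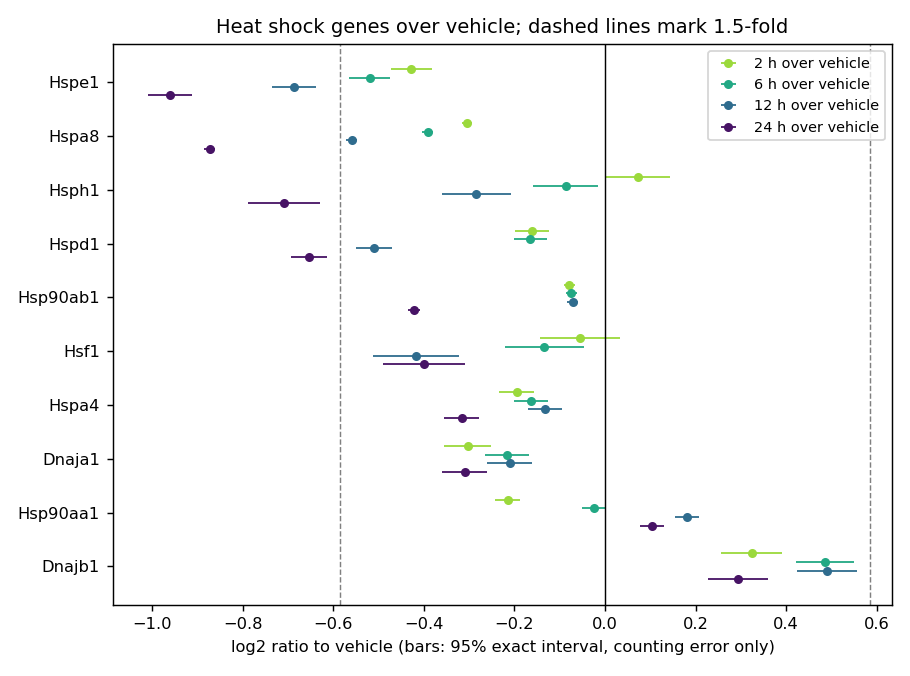
Log2 ratio to vehicle of each gene (one row each) at 2, 6, 12 and 24 h, bars for the 95% exact interval (counting error alone); dashed lines mark 1.5-fold. Hspe1, Hspa8, Hsph1 and Hspd1 lay past the lower line at 24 h, and Dnajb1 lay above 0 at all 4 times.

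Of the 10 genes, 0 differed from vehicle by 2-fold or more with an interval excluding a ratio of 1 at any time. In either direction this rule called 1.33%, 1.94%, 3.07% and 4.09% of 8846 compared genes after 2, 6, 12 and 24 h. By a lower rule of 1.5-fold, 0 members were called lower at 2 h and at 6 h, 1 (Hspe1) at 12 h and 4 (Hspa8, Hsph1, Hspd1 and Hspe1) at 24 h. The rule called 3.62%, 3.83%, 5.55% and 8.87% of compared genes lower at 2, 6, 12 and 24 h. Called higher by 1.5-fold were 0 members at any time, against 7.20%, 9.73%, 10.6% and 12.2% of compared genes. Adjusted for length and GC content, 0 members passed at 12 h and 2 (Hspa8 and Hsph1) at 24 h, where the adjusted rule called 3.64% and 5.39% of compared genes lower. Scaled by total counts only, the 24 h ratio of Hspd1 was -0.55 and under 1.5-fold.

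The median log2 ratio of the members was -0.18, -0.15, -0.25 and -0.41 after 2, 6, 12 and 24 h, with 8, 9, 8 and 8 of 10 below vehicle. Over all compared genes the median was 0.03, 0.04, 0.02 and 0.00, with 53.1%, 54.5%, 52% and 50% of them above vehicle. The middle 90% of compared genes at 24 h ran from -0.70 to 0.85, and Hspe1, Hspa8 and Hsph1 were below that range. The adjusted median of the members was -0.09 at 2 h and -0.46 at 24 h.

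**Figure D3:**
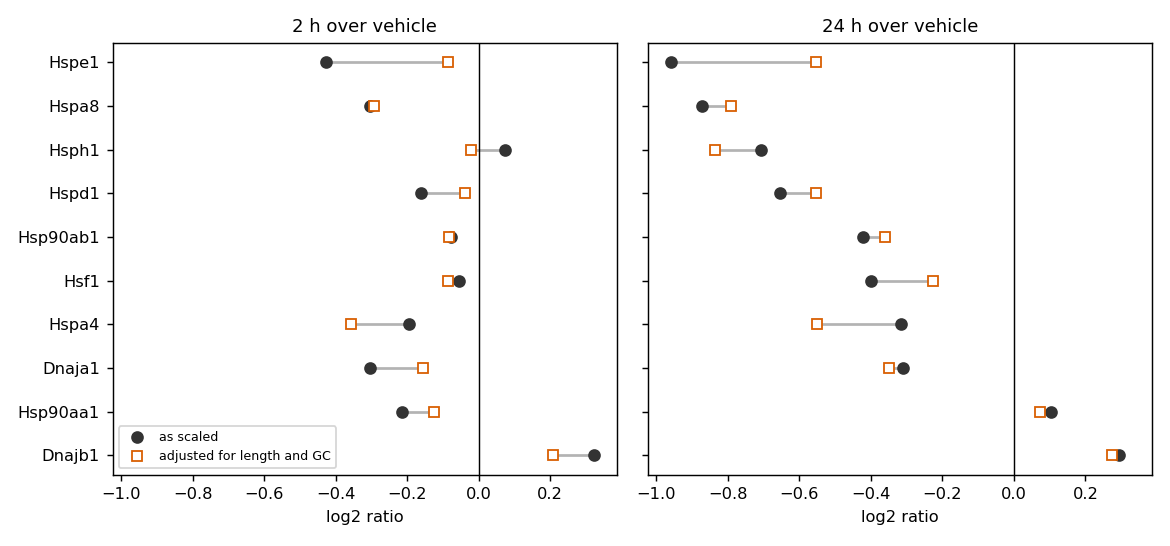
Log2 ratio to vehicle at 2 h and 24 h as scaled (circles) and after adjustment for transcript length and GC content (squares). Hspe1 moved from -0.96 to -0.55 at 24 h with the adjustment, and Hspa4 from -0.32 to -0.55.

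Steps between treated libraries do not use the vehicle library. By sign alone, 5 members were lower and 5 higher at 6 h over 2 h and again at 12 h over 6 h. The intervals of Hsf1, Hspa4, Hsp90ab1 and Hspd1 held 0 at 6 h over 2 h. Those of Hspa4, Hsp90ab1, Dnaja1 and Dnajb1 held 0 at 12 h over 6 h, where only Hsp90aa1 (0.21) had an interval above 0. With adjustment 4 members were above 0 in each of these steps. At 24 h over 12 h 9 were lower, all but Hsf1, and 40.7% of all compared genes were above 0. In that last step the members' median was -0.19, against -0.03 over all compared genes, and Hsph1 (-0.42), Hsp90ab1 (-0.35), Hspa8 (-0.31) and Hspe1 (-0.27) were lowest. Their adjusted values in this step were -0.41, -0.30, -0.26 and -0.22. Scaled by total counts only, the members' median in this step was -0.11, with Hsp90aa1 at 0 and Dnaja1 at -0.02. By 1.5-fold 0 members were called in the steps 6 h over 2 h, 12 h over 6 h and 24 h over 12 h. The share of compared genes called lower was 0.350%, 0.904% and 0.203% in these steps, and called higher 0.837%, 0.384% and 0.610%. For 24 h over 2 h, 1 member (Hsph1) was called lower and 0 higher, with 3.80% and 3.98% of genes. By 2-fold 0 members were called in these 4 comparisons, where 0.328%, 0.305%, 0.147% and 1.55% of genes were.

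A slope on log2(hours + 1) was fitted to the 5 libraries and tested by the edgeR quasi-likelihood method, with 3 residual degrees of freedom per gene and Benjamini-Hochberg adjustment over 13915 genes. Hspe1 (slope -0.19 in log2 per unit, adjusted p = 0.0184), Hspa8 (-0.17, adjusted p = 0.0235) and Hspd1 (-0.14, adjusted p = 0.0362) passed 0.05, and each was below vehicle in 4 of 4 treated libraries. Of all tested genes 4.05% passed with a falling slope and 5.35% with a rising one, which 0 members did. Hsf1 (-0.10) and Hsph1 (-0.14) each had an adjusted p of 0.0718, Dnajb1 (0.08) had 0.226, Hsp90ab1 (-0.07) 0.24, Hspa4 (-0.05) 0.265, Dnaja1 (-0.05) 0.292 and Hsp90aa1 (0.05) 0.408. With offsets for length and GC content the same test called 5 members, all falling, and 11% of tested genes. Added were Hsph1 (-0.17, adjusted p = 0.0213) and Hspa4 (-0.10, adjusted p = 0.0393), and the slope of Hspe1 was -0.12. Without the filter on low counts, or with time in hours, 0 members passed. Without the 12 h or the 24 h library 0 members passed, and without the 6 h library only Hspe1 did. Without the vehicle library 6 did, Hsp90aa1 with a rising slope and Hsf1, Hspa8, Hsph1, Hspd1 and Hspe1 with a falling one. With no replicates, the spread used here is how far the libraries lie from that line.

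Ratios of members within a library do not depend on how libraries are scaled, but they do move with the length and GC adjustment. Per kilobase of transcript, Hsp90aa1 over Hsp90ab1 was 0.166 (0.164 to 0.169) in vehicle. With Fanchinoline for 2, 6, 12 and 24 h it was 0.151, 0.172, 0.198 and 0.239 (0.236 to 0.242 for the last). The inducible form took a growing share of HSP90 messages from 2 h on, while the constitutive form remained the larger by far. In log2 this pair differed from vehicle by -0.14 at 2 h and 0.52 at 24 h, and with adjustment by -0.04 and 0.43. Dnajb1 over Dnaja1 was 0.525 in vehicle and 0.810, 0.854, 0.853 and 0.797 at 2, 6, 12 and 24 h. In log2 this ratio differed from vehicle by 0.63 at 2 h and 0.60 at 24 h, and with adjustment by 0.36 and 0.62. Hsph1 over Hspa4 was 0.318 in vehicle and 0.382, 0.335, 0.286 and 0.242 at 2, 6, 12 and 24 h. It was above vehicle at 2 h and below it at 12 and 24 h, by 0.27 at 2 h and -0.39 at 24 h in log2 (0.34 and -0.28 adjusted). Hspe1 over Hspd1 was 2.28 in vehicle and 1.90, 1.78, 2.02 and 1.84 at 2, 6, 12 and 24 h, without an order of time among treated libraries. In log2 it differed from vehicle by -0.27 at 2 h and -0.31 at 24 h, and with adjustment by -0.05 and 0.00. Hspa8 over Hsp90ab1 was 1.42 in vehicle and 1.21, 1.14, 1.01 and 1.04 at 2, 6, 12 and 24 h. Its log2 difference from vehicle was -0.23 at 2 h and -0.45 at 24 h, and -0.21 and -0.43 adjusted.

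**Figure D4:**
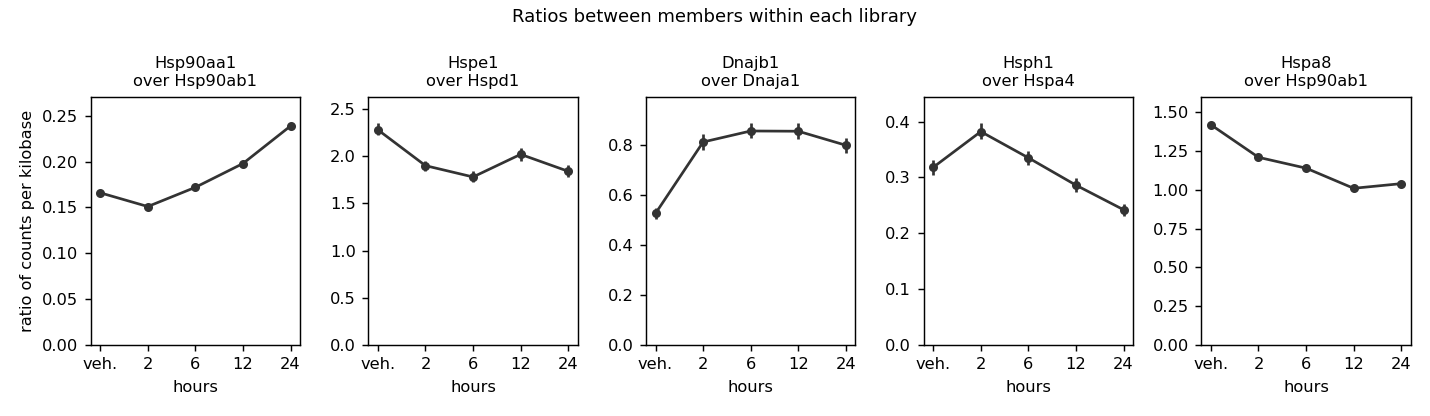
Ratio of counts per kilobase between paired members in vehicle and at 2, 6, 12 and 24 h, with 95% exact intervals for counting error. Hsp90aa1 over Hsp90ab1 was highest at 24 h (0.239), and Dnajb1 over Dnaja1 was lowest in vehicle (0.525).

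Per kilobase, levels spanned a range of 61.3-fold between Hspa8 and Hsph1 on the mean of the 5 libraries. The order in vehicle was Hspa8, Hsp90ab1, Hspe1, Hsp90aa1, Hspd1, Hspa4, Dnaja1, Dnajb1, Hsf1 and Hsph1. At 12 and 24 h Hsp90aa1 (207 scaled counts per kilobase at 24 h) stood above Hspe1 (169), and the other positions were as in vehicle. At 24 h Hspa8 (899) and Hsp90ab1 (866) stood at a ratio of 1.04, with a counting interval above 1. The ratio of their counts, without transcript length, was 0.986 (0.977 to 0.995). Their order therefore depends on the transcript lengths used, which the interval does not cover. It also depends on how reads are divided between Hspa8 and its pseudogenes. At 24 h Gm15459 alone (180 CPM) held more than the gap in CPM between Hspa8 (2153) and Hsp90ab1 (2183), and Hsp90ab1 had 0 such copies. Together the 10 genes took 0.867% of all counts in vehicle and 0.767%, 0.756%, 0.725% and 0.630% at 2, 6, 12 and 24 h. Hspa8 and Hsp90ab1 made up 72.1% of these at 24 h and 77.3% in vehicle, so the sum follows those 2 genes. The other 8 members summed to 1674 CPM at 24 h and 2010.4 CPM in vehicle.

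A list of 13 further genes of the heat shock response, made up of inducible or small heat shock proteins, other heat shock factors and the HSF1-binding protein gene Hsbp1, was mostly low in these cells. Of the 13 only Bag3, Hsf2 and Hsbp1 reached 10 CPM, and of these Hsf2 and Hsbp1 are regulators, not strongly induced genes. At 24 h 0 of these 3 were called at 1.5-fold, where 8.87% of all compared genes were called lower and 12.2% higher. So few genes cannot be set apart from those shares. Hspa1b, an inducible HSP70, was at 6.92 CPM in vehicle and at 8.44, 8.62, 6.71 and 5.06 CPM at 2, 6, 12 and 24 h. Hspa1a, nearly identical to it and so uncertain on its own, was at 3.72 CPM in vehicle and at 4.34, 3.91, 3.60 and 2.44 CPM at 2, 6, 12 and 24 h. Hspb1, which encodes HSP25, had 0 counts in every treated library and 4 in vehicle, and Cryab had 0 in all 5. Bag3, which links HSP70 to autophagy, was at 39.1 CPM at 24 h and 53.1 CPM in vehicle (-0.44).

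The 13 HSP90 co-chaperones had a 24 h median of -0.44 (-0.39 adjusted). At 1.5-fold 5 of 13 were called lower and 0 higher, where 8.87% of all compared genes were called lower and 12.2% higher. These were the cyclophilin Ppid (-1.03, and the one listed chaperone gene called at 2-fold at 24 h as scaled), the immunophilin Fkbp4 (-0.78), Ahsa1 (-0.60), which activates the ATPase of HSP90, p23 or Ptges3 (-0.59), which stabilises its closed state, and Sugt1 (-0.59). Ppid was at 33.7 CPM at 24 h and 68.7 CPM in vehicle. With adjustment 5 of 13 were called lower too, where 5.39% of all compared genes were. Ahsa1 (-0.33) and Ptges3 (-0.39) were not among them, and Cdc37 (-0.90) and Chordc1 (-0.60) were. At 2-fold the adjusted rule called Sugt1 (-1.03) and not Ppid (-0.77). The 2-fold rule called 4.09% of all compared genes in either direction as scaled, and 2.65% with adjustment.

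HSP70 co-chaperones (14 of 16 compared) had a median of -0.27 at 24 h (-0.12 adjusted). At 1.5-fold 2 were called lower and 0 higher, against 8.87% of all compared genes called lower and 12.2% higher. The ribosome-associated Dnajc2 (-0.78) and the exchange factor Bag1 (-0.66) were the called genes, and Hspbp1 (-0.54) and the ubiquitin ligase Stub1 (-0.43), also called CHIP, were next. With adjustment only Dnajc2 (-0.62) was called, where 5.39% of all compared genes were called lower. Adjusted, Bag1 was at -0.33, Hspbp1 at -0.25 and Stub1 at -0.16. Cytosolic chaperonin CCT and prefoldin subunits, which fold actin and tubulin, had a median of -0.41 over 14 genes and of -0.19 when adjusted. Of these 2 were called lower, Pfdn4 (-0.63) and Pfdn5 (-0.60), and Cct2 was at -0.55 and Pfdn1 at -0.54. With adjustment 0 of 14 were called, against 8.87% of all genes called lower as scaled and 5.39% adjusted, and Pfdn4 was at -0.15, Pfdn5 at -0.26, Cct2 at -0.37 and Pfdn1 at -0.21. All 14 were below vehicle at 24 h as scaled and 13 with adjustment, and as scaled 50% of all compared genes were above vehicle.

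Mitochondrial chaperones and proteases had a median of -0.12 over 15 genes, with 3 called lower and 0 higher at 24 h, where 8.87% of all compared genes were called lower. These 3 were the import motor gene Dnajc19 (-0.98), the protease Clpp (-0.77) and Htra2 (-0.61). With adjustment 0 of 15 were called at 24 h, against 5.39% of all compared genes called lower and 6.4% called higher. Adjusted, Dnajc19 was at -0.49, Clpp at -0.38 and Htra2 at -0.38. Lonp1, the Lon protease of the mitochondrial matrix, was above vehicle at all 4 times, with 155 CPM at 24 h and 108 CPM in vehicle (0.52). At 12 h it was called higher at 1.5-fold (0.64, and 0.59 adjusted), as were 10.6% of all compared genes and 4.61% with adjustment. The mitochondrial HSP70 gene Hspa9 was at 343 CPM in vehicle and at 344, 374, 294 and 259 CPM at 2, 6, 12 and 24 h, with -0.40 at 24 h. In the trend over time Dnajc19, Clpp, Htra2 and Lonp1 passed (adjusted p = 0.0275, 0.0235, 0.0417 and 0.0445, edgeR's quasi-likelihood test), as did Dnajc2, Bag1, Ppid and Ptges3 (0.0379, 0.0288, 0.0295 and 0.0360). Lonp1 was the only one of these 8 with a rising slope. A falling slope passed for 3 of 15 mitochondrial genes, 2 of 14 HSP70 co-chaperones and 2 of 13 HSP90 co-chaperones. It passed for 0 of 14 chaperonin and prefoldin genes. Of all tested genes 4.05% passed with a falling slope and 5.35% with a rising one. With time in hours, without the filter on low counts or without the 12 h library, 0 genes passed.

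**Figure D5:**
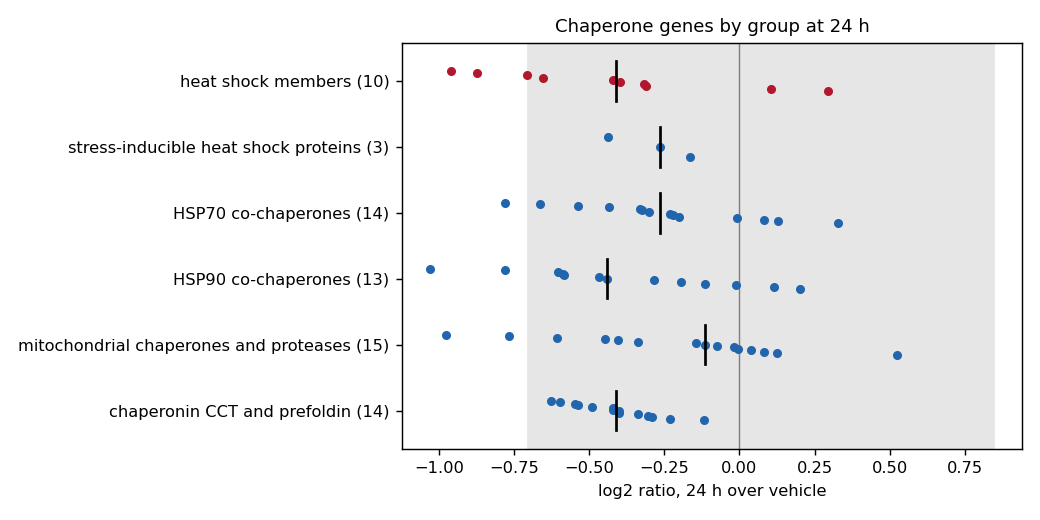
Log2 ratio at 24 h over vehicle for the 10 members (red) and for compared genes of 5 chaperone lists (blue), number of genes in brackets, with black bars at medians. The grey band spans the middle 90% of all compared genes (-0.70 to 0.85), and the HSP90 co-chaperones have a median of -0.44.

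The 5 compared genes whose 4 ratios to vehicle lay nearest to the members' median profile, by root mean square distance, were Nt5dc2 (0.013), Hdgfl2 (0.020), Srsf2 (0.021), Pam16 (0.022) and Srpk1 (0.023). This likeness rests on 4 ratios that share 1 vehicle library.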

How the data were processed

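Poly-A RNA of MutuDC cells was sequenced with the TruSeq kit named in the labels' protocols, a kit that does not mark strand. Trim Galore, HISAT2 and GRCm38 are listed in the submitters' processing notes, and the labels used here name no counting tool. Raw counts were deposited by the authors per gene, 1 column for each of 5 time points, used here as deposited. Nothing says that the libraries came from separate cultures.

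Counts were scaled to CPM with TMM factors (edgeR 4.0.16, R 4.3.3). The 8846 genes that reached 10 CPM in any library were compared. A log2 ratio of 2 libraries used a prior count of 2, and its 95% interval is the exact binomial one for counting error only. A gene was called where the ratio passed 1.5-fold or 2-fold and the interval excluded a ratio of 1. Length and GC content of 1 transcript per gene (GENCODE annotation of GRCm38, found for 99.88% of compared genes) gave adjusted ratios by a local regression with span 0.5. The trend over time used edgeR's quasi-likelihood test on 13915 genes, with DESeq2 1.42.0 as an alternative. The procedure was run on simulated counts with straight-line slopes and the same spread for every gene. Those counts held no length effect, so the run does not show how the test behaves on these libraries. Near-identical copies were annotated transcripts matching at 95% identity over at least 200 bases. Gene positions follow GRCm38 and promoter sequences RefSeq's table for GRCm38.p6.

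Named genes were the 10 members, up to 4 genes per list with the largest ratio at 24 h and any called at 2-fold, and the 5 nearest profiles. Sugt1, Cdc37, Chordc1, Hspa9, Batf3, Flt3, Zbtb46, Irf8, Csf1r, Hspa1a, Hspa1b, Hspb1 and Cryab, and the pseudogenes and overlapping genes, were named beyond that rule after their values were seen. The members and lists were chosen with earlier results of these data known. Alternatives were another scaling, prior count and filter, summed copies, a trend in hours and leaving out each library.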

Additional observations from a re-analysis of the deposited data

How the results depend on the processing

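No member's ratio and no trend slope changed sign among called values under any alternative run. With length and GC adjustment the number of members called lower at 1.5-fold was 0 at 12 h and 2 at 24 h. In the trend over time 3 members were called among 1309 genes. DESeq2's Wald test called 5 members (2342 genes), length and GC offsets called 5 (1523 genes), no filter on low counts called 0 (0 genes, 5 members and 4843 genes at an unadjusted p under 0.05), and a slope in hours called 0 (0 genes, 6 members and 2746 genes unadjusted). Leaving out 1 library gave 0 to 6 members. Genes called were 2177 without vehicle, 2205 without 2 h, 509 without 6 h, 0 without 12 h (2886 unadjusted) and 28 without 24 h. Leaving out a library leaves fewer degrees of freedom, and testing more genes makes the adjustment heavier. Without vehicle or without 2 h more genes were called than with all libraries (1309). The causes of these differences were not tested. Scaling by total counts only moved the median of all compared genes at 24 h over vehicle by 0.10 in log2. Near-identical copies were added to the members' counts as an alternative chosen after seeing the data. Of 80 member ratios, this moved those of Hspa8 over vehicle at 6 h and at 24 h beyond their counting intervals. At 10 CPM a library held 328 to 427 counts, which limits the genes near that level. No paired analysis was possible because each time point has 1 library.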
